A study of Mus musculus with 10 samples.

Results

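Kinesins are motor proteins that turn over ATP to walk along microtubules or to take their ends apart. The kinesin superfamily was taken here as every protein-coding gene in the count table whose GRCm38 symbol starts with Kif and a digit, which gave 39 of 55573 genes. They were placed by known function into 12 mitotic kinesins, 13 transport kinesins and 14 others. The genes came from RNA-seq of bone marrow B-cell progenitors of mice with the PAX5-ELN and H2B-GFP transgenes, given doxycycline, with a time of 35 days.

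The 5 GFP high libraries are labelled quiescent and the 5 GFP low libraries proliferating. Both groups carry the same transgenes and the same treatment, and the labels set them apart by the level of H2B-GFP alone. H2B-GFP is a fluorescent histone that is diluted at each division once its synthesis stops. The labels used here do not give the animals' age, the promoter of either transgene, or whether each library is a separate animal, and p-values then measure only the spread between these libraries, which may be technical. Depth was similar, with totals of 11347097 to 13838769 counts for GFP high and of 10640894 to 14858520 counts for GFP low. All 12 B-cell progenitor markers were tested, with a summed level of 14275 to 16585 CPM (counts scaled to a common library size after TMM normalization) in GFP high libraries and 11704 to 13075 CPM in GFP low libraries. Of these 12, 4 were higher in GFP high and 0 lower at an edgeR adjusted p under 0.05. Of all genes tested, 12.0% were higher and 15.4% lower. The summed level of 5 NK cell markers was 187 to 327 CPM in GFP high libraries and 63.1 to 166 CPM in GFP low libraries, nearly all of it Klrb1c, while Gzma was at 0. That of 7 monocyte and macrophage markers was 99.9 to 146 CPM in GFP high libraries and 71.3 to 106 CPM in GFP low libraries, and Csf1r among them was 4.40-fold higher in GFP high (edgeR adjusted p = 3.53e-05). That of 5 plasma cell markers was 622 to 1095 CPM in GFP high libraries and 509 to 805 CPM in GFP low libraries, although Jchain among them averaged 0.629 CPM in GFP high libraries and 56.7 CPM in GFP low libraries. That of 7 erythroid markers was 18.7 to 46.9 CPM in GFP high libraries and 9.3 to 23.0 CPM in GFP low libraries, with Hbb-bs higher in GFP high (edgeR adjusted p = 0.0447). That of 7 T cell markers was 1.31 to 3.89 CPM in GFP high libraries and 1.94 to 9.88 CPM in GFP low libraries, with Lck lower in GFP high (edgeR adjusted p = 0.039) and Cd8a at 0. For 7 neutrophil markers the sum was 3.58 to 9.87 CPM in GFP high libraries and 2.81 to 7.18 CPM in GFP low libraries. For 4 megakaryocyte markers it was 4.01 to 6.31 CPM in GFP high libraries and 5.04 to 9.55 CPM in GFP low libraries. No tested gene of these 2 lists had an edgeR adjusted p under 0.05. Whether the markers of other cell types came from other cells or from the B-cell progenitors was not tested. Their part in the results below was not tested either.

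In a dividing cell, mitotic kinesins push the spindle poles apart, move and align chromosomes, trim microtubule ends and build the midzone where the cell will cleave. Many of their genes are known to be transcribed mainly in G2 and mitosis and to be held down in resting cells by the DREAM repressor complex, which binds a promoter element called the cell cycle genes homology region (CHR). Transport kinesins carry vesicles, organelles and protein complexes in interphase cells, and many were first described in neurons.

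Mitotic and transport kinesins differed in how they stood between the groups. In edgeR's quasi-likelihood test with Benjamini-Hochberg adjustment over 12772 genes, 15.4% of all genes were lower in GFP high libraries and 12.0% were higher, at an adjusted p under 0.05. Of the mitotic kinesins, 11 of 12 had enough counts to be tested, and 10 of those 11 were lower and 0 higher. Of the transport kinesins, 10 of 13 were tested, 1 was higher and 0 were lower. Of the others, 6 of 14 were tested, 0 were higher and 1 was lower. The median log2 fold change of GFP high over GFP low was -1.09 for mitotic kinesins, 0.13 for transport kinesins and 0.05 for the others, beside 0.03 for all genes tested. In bulk RNA, fewer cells in mitosis and less RNA per cell cannot be told apart.

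The summed level of the mitotic kinesins was 782 ± 123 CPM in GFP high libraries and 1614 ± 202 CPM in GFP low libraries (SD, n = 5 each). The transport kinesins summed to 432 ± 52.2 CPM in GFP high libraries and 411 ± 29.2 CPM in GFP low libraries. Their ratio was 1.81 ± 0.188 in GFP high libraries and 3.93 ± 0.474 in GFP low libraries, and the groups did not overlap, since GFP high libraries ran up to 2.04 and GFP low libraries started at 3.41. Mitotic kinesins made up 58.4 ± 2.47% of the kinesin CPM in GFP high libraries and 75.1 ± 2.17% in GFP low libraries. Mitotic kinesin transcripts were still the larger share of the superfamily in the cells labelled quiescent.

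**Figure D1:**
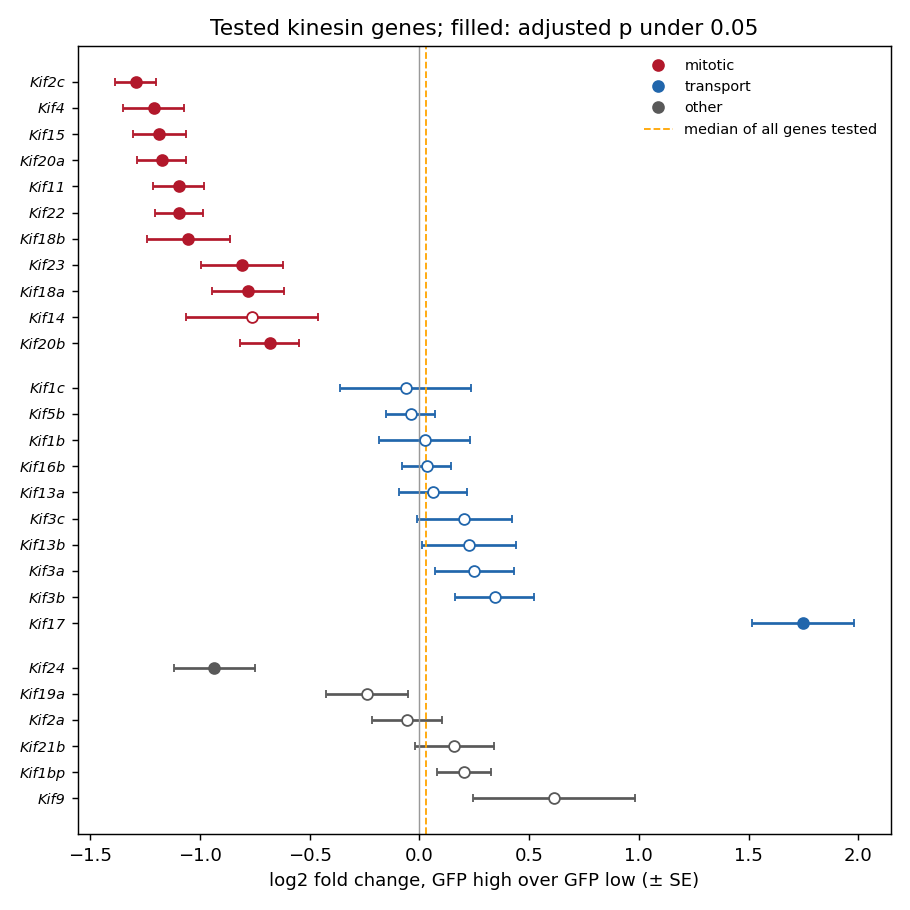
Log2 fold change of GFP high over GFP low for the 27 tested kinesins, with bars of 1 SE, by class. The 11 mitotic kinesins all lie below 0, the transport kinesins lie around 0 apart from Kif17 at 1.75, and Kif24 is the lowest of the others at -0.93.

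Kif11 and Kif15 are the motors that keep the spindle bipolar, Kif11 by sliding antiparallel microtubules apart and Kif15 by holding the poles apart at a later stage. Kif11 (ENSMUSG00000012443, chr19:37376403-37421859, + strand, GRCm38) had 186, 263, 207, 172 and 206 CPM in GFP high libraries, against 433, 522, 409.7, 408 and 438 CPM in GFP low libraries. Every GFP high library lay below every GFP low library. The means were 207 ± 34.5 CPM in GFP high libraries and 442 ± 46.7 CPM in GFP low libraries, a log2 fold change of -1.10 ± 0.12 (SE, edgeR adjusted p = 4.19e-05), or 2.14-fold lower in GFP high. Kif15 (chr9:122951046-123018733, + strand) had 69.5, 69.8, 59.6, 52.2 and 58.4 CPM in GFP high libraries, against 145, 168, 147, 111 and 132 CPM in GFP low libraries. These groups did not overlap either, and the log2 fold change was -1.18 ± 0.12 (edgeR adjusted p = 3.01e-05).

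Kif4 and Kif22 are chromokinesins, which bind chromosome arms. Kif22 (ENSMUSG00000030677, chr7:127027729-127042471, - strand) had 105, 131, 110.3, 94.6 and 102 CPM in GFP high libraries, against 212, 271, 246, 202 and 229 CPM in GFP low libraries. Its log2 fold change was -1.09 ± 0.11 (edgeR adjusted p = 2.67e-05), with no overlap of the groups. Kif4 (chrX:100625737-100727214, + strand), which also works with Prc1 at the spindle midzone, had 49.9, 69.8, 56.2, 49.7 and 41.7 CPM in GFP high libraries, against 111, 147, 123, 104 and 134 CPM in GFP low libraries. The groups did not overlap, and the log2 fold change was -1.21 ± 0.14 (edgeR adjusted p = 7.21e-05). Of the 5514 exonic bases of Kif4, 832 are shared with Pdzd11 on the opposite strand, and no source used here says whether strand was used in counting, so reads of the pair could not be told apart there.

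Kif2c, Kif18a and Kif18b shorten microtubules or limit their growth. Kif2c (chr4:117159639-117182639, - strand), a depolymerase that works at centromeres, had 45.8, 40.8, 37.2, 35.3 and 43.03 CPM in GFP high libraries, against 90.1, 109, 95.3, 98.03 and 102 CPM in GFP low libraries. All GFP high libraries lay below all GFP low libraries, by 2.45-fold between the means, and the log2 fold change was -1.29 ± 0.09 (edgeR adjusted p = 6.66e-06). Kif18b (chr11:102905529-102925124, - strand), which acts on astral microtubules, had 49.1, 71.4, 60.3, 34.4 and 42.7 CPM in GFP high libraries, against 100.3, 133, 121, 81.1 and 99.4 CPM in GFP low libraries. The groups did not overlap, and the log2 fold change was -1.05 ± 0.19 (edgeR adjusted p = 0.00148). Kif18a (chr2:109280738-109341747, + strand), which damps chromosome movements on the metaphase plate, had 49.3, 54.6, 58.1, 35.9 and 41.04 CPM in GFP high libraries, against 85.2, 96.6, 94.9, 57.3 and 76.6 CPM in GFP low libraries. The groups overlapped, since GFP low library 4 lay just below GFP high library 3, and the log2 fold change was -0.78 ± 0.16 (edgeR adjusted p = 0.0036).

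Kif20a, Kif20b, Kif23 and Kif14 act at the midzone and in cytokinesis. Kif20a (chr18:34624613-34633277, + strand), which brings the Aurora B complex to the midzone, had 59.7, 58.2, 53.5, 42.4 and 45.3 CPM in GFP high libraries, against 114, 135, 110.5, 108 and 115 CPM in GFP low libraries. The groups did not overlap, and the log2 fold change was -1.17 ± 0.11 (edgeR adjusted p = 2.16e-05). Of the 4338 exonic bases of Kif20a, 1271 are shared with Cdc23 on the opposite strand. Kif20b (chr19:34922361-34975745, + strand) had 55.2, 55.9, 54.997, 44.8 and 44.7 CPM in GFP high libraries, against 90.2, 94.6, 88.7, 57.2 and 79.3 CPM in GFP low libraries. GFP low library 4 stood only just above the GFP high libraries, and the log2 fold change was -0.68 ± 0.13 (edgeR adjusted p = 0.00267).

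Kif23 (chr9:61915905-61946774, - strand), the motor subunit of centralspindlin, had 104, 133, 115, 68.2 and 77.1 CPM in GFP high libraries, against 164, 225, 188, 128 and 164 CPM in GFP low libraries. GFP high library 2 lay above GFP low library 4, so the groups overlapped, and the log2 fold change was -0.81 ± 0.19 (edgeR adjusted p = 0.00711). Kif14 (ENSMUSG00000041498, chr1:136466343-136531511, + strand), which binds citron kinase in cytokinesis, was the tested mitotic kinesin that missed the threshold. It had 9.84, 13.8, 8.63, 6.696 and 4.85 CPM in GFP high libraries, against 10.3, 22.7, 12.8, 10.4 and 18.1 CPM in GFP low libraries. The groups overlapped, the level was lower in GFP high in 5 of 5 same-numbered pairs, and the log2 fold change was -0.76 ± 0.30 (edgeR adjusted p = 0.0778). With the replicate number as a block the adjusted p of Kif14 was 0.0161, which made 11 of 11 mitotic kinesins lower beside 21.0% of all genes. With DESeq2 it was 0.0499, beside 16.5% of all genes lower. Without GFP high library 2, which had its highest GFP high level, its log2 fold change was -0.96 and its edgeR adjusted p 0.0385, beside 12.4% of all genes lower. Without GFP low library 2, which had its highest level of all, the log2 fold change was -0.55 (edgeR adjusted p = 0.215). In replicates 1 to 3 alone Kif14 was at -0.48 (edgeR adjusted p = 0.302). It was at -1.32 (edgeR adjusted p = 0.0157) in replicates 4 and 5 alone. The log2 ratios of Kif14 in pairs 1 to 5 were -0.06, -0.70, -0.54, -0.60 and -1.80. Pair 5 was the lowest, and pair 4 lay between pairs 2 and 3.

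**Figure D2:**
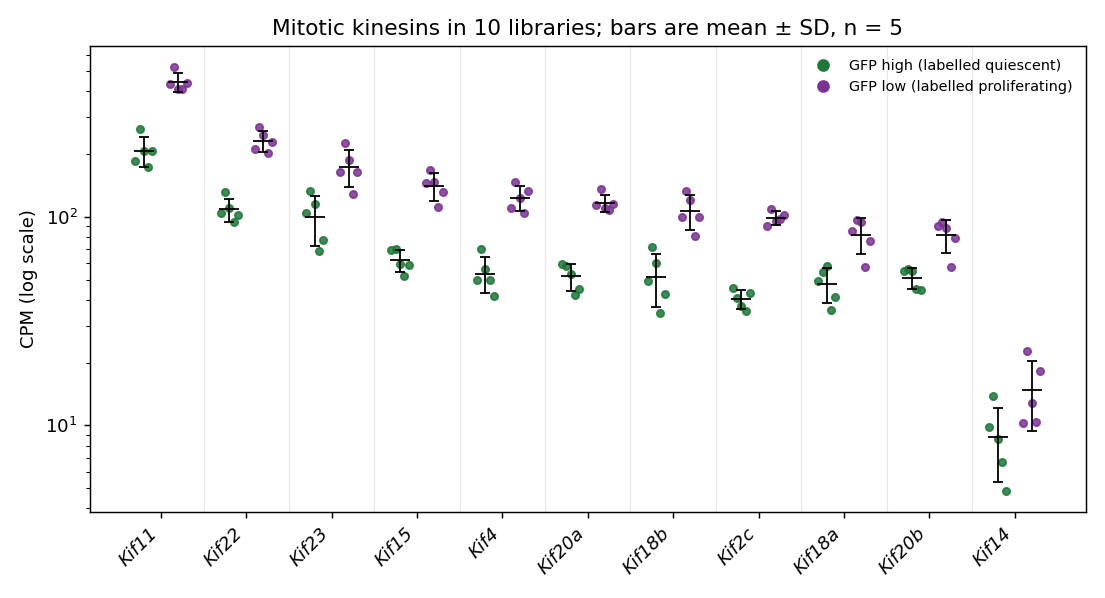
CPM of each tested mitotic kinesin in the 5 GFP high and the 5 GFP low libraries (points with mean and SD). For Kif11 the GFP high libraries reach 263 CPM and the GFP low libraries start at 408 CPM, whereas Kif14, Kif18a and Kif23 overlap between the groups.

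In 8 of 11 mitotic kinesins every GFP high library lay below every GFP low library, beside 12.6% of all genes tested. Library 2 had 11 of 11 mitotic kinesins above the group mean in GFP high and in GFP low, and library 4 had 0 of 11 in both. The other libraries were divided, with 7, 9 and 2 of 11 above the mean in GFP high libraries 1, 3 and 5, against 3, 6 and 3 of 11 in GFP low libraries 1, 3 and 5. All 11 were lower in GFP high in each of the 5 same-numbered pairs. The share of all genes that kept 1 direction in every pair was not computed, here or for the single kinesins whose pairs are counted. The median log2 ratio of the mitotic kinesins was -0.97, -0.99, -0.99, -1.09 and -1.17 in pairs 1 to 5. The transport kinesins had pair medians of -0.04, 0.16, 0.27, 0.27 and -0.09. Across the pairs the mitotic medians spanned a narrow range, and the transport medians lay on both sides of 0.

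The promoters of the members were read for 3 elements known from cell cycle genes, on both strands of the 250 bases before and 50 bases after the RefSeq start (GRCm38.p6). RefSeq windows were found for 31 of 39 members, and no motif matches overlapped each other. These are not the same genes as those tested, since untested members such as Kif2b, Kif1a and Kif5c have a window and Kif20a, Kif5b and Kif13b have none. The CHR (TTTGAA or TTCGAA) was present in 9 of 11 mitotic kinesins, 1 of 10 transport kinesins and 3 of 10 others, beside 21.7% of the 27025 genes with a window. Among the tested kinesins with a window it was present in 9 of 10 mitotic kinesins and 0 of 8 transport kinesins, the transport match being that of Kif1a. The 3 others with a CHR were Kif24, which was tested, and Kif26b and Kif27, which were at 0 counts in every library. The CCAAT box (CCAAT), the site of the activator NF-Y, was present in 7 of 11 mitotic kinesins, 3 of 10 transport kinesins and 4 of 10 others, beside 41.1% of all. Both elements were present in 6 of 11 mitotic kinesins, 0 of 10 transport kinesins and 3 of 10 others, beside 8.61% of all. An E2F core (TTCCCGC or TTCGCGC or TTGCCGC or TTGGCGC) was present in 2 of 11 mitotic kinesins, 1 of 10 transport kinesins and 2 of 10 others, beside 10.9% of all. Binding of any factor was not measured here.

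The 120 bases before the RefSeq starts of Kif11 (chr19:37376262-37376381, + strand) and Kif18b (chr11:102925125-102925244, - strand) are shown as examples that hold CCAAT boxes. Those before Kif17 (chr4:138262131-138262250, + strand), the transport kinesin that was higher in GFP high, hold neither element. Kif4 and Kif23, which are not shown, have CCAAT boxes closer to the start, beginning 5 and 7 bases before it. Capitals mark the CCAAT box, also read as ATTGG on the other strand, and the CHR, also read as TTCAAA.
Kif11: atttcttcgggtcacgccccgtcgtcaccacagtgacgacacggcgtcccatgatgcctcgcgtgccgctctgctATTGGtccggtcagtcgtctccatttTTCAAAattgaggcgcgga
Kif18b: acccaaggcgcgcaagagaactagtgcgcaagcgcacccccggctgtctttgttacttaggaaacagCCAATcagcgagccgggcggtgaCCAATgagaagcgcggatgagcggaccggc
Kif17: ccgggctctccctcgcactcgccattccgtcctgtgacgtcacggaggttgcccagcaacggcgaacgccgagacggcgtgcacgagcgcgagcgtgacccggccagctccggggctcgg
In Kif11 the CCAAT box began 45 bases and the CHR 19 bases before the start. In Kif18b the CCAAT boxes began 53 and 30 bases before the start, and its CHR began at base 4 after it.

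Shorter stretches of 30 bases show the CHR, in capitals, of Kif15 (chr9:122951050-122951079, + strand), Kif22 (chr7:127042420-127042449, - strand), Kif2c (chr4:117178858-117178887, - strand) and Kif24 (chr4:41464857-41464886, - strand).
Kif15: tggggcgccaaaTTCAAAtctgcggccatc
Kif22: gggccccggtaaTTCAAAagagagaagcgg
Kif2c: ccaggctgctctTTCAAAcctgagtaatgc
Kif24: tcggcgcgcgcgTTCGAActggcgcttgtg
These elements began 19 bases before the start in Kif15, 17 in Kif22, 103 in Kif2c and 26 in Kif24. The RefSeq start of Kif2c lay 3867 bases downstream of its first GENCODE start, that of Kif14 1505 bases and that of Kif17 11816 bases, so their windows describe 1 of several starts. Kif18a, which was also lower in GFP high, had no CHR or CCAAT box in its window. Its window held an E2F core that began 10 bases before the start.

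**Figure D3:**
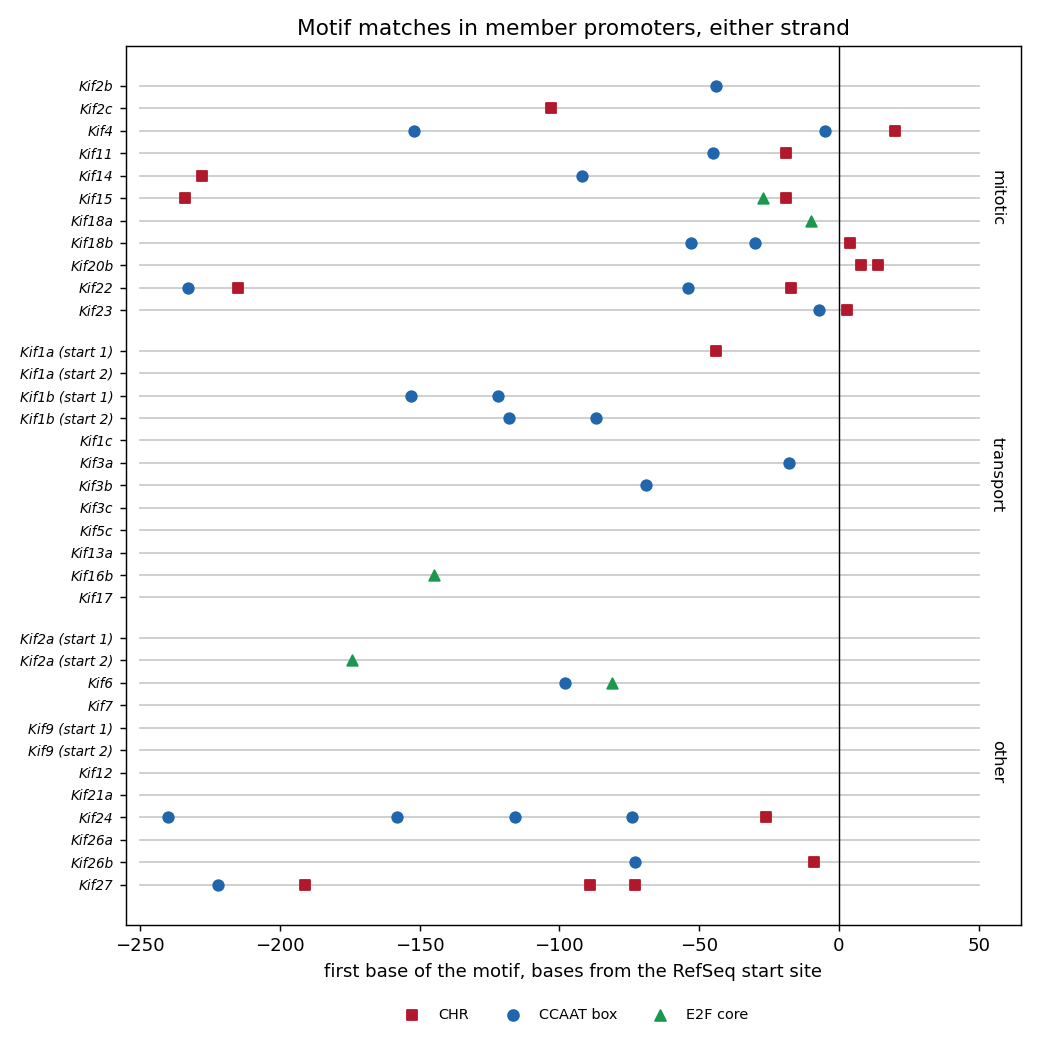
Positions of CHR, CCAAT box and E2F core matches in the RefSeq promoter windows of the kinesins, in bases from the start, by class. Kif11, Kif15, Kif22, Kif24 and Kif26b have a CHR within 26 bases before the start, and Kif17 has no match. Kif26b was at 0 counts in every library.

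Kif5b is the heavy chain of conventional kinesin, a major cargo motor of interphase cells. Kif5b had 239, 284, 300.4, 232 and 201 CPM in GFP high libraries, against 278, 272, 273, 232 and 236 CPM in GFP low libraries. The groups lay on top of each other, with a log2 fold change of -0.04 ± 0.11 (edgeR adjusted p = 0.831). Kif5b alone made up 55.0 to 60.9% of the transport kinesin CPM in GFP high libraries, against 59.2 to 66.0% of it in GFP low libraries.

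Kif3a, which pairs with Kif3b in the heterotrimeric kinesin-2 of cilia and vesicles, had 50.8, 32.1, 42.02, 28.03 and 34.5 CPM in GFP high libraries, against 41.6, 28.98, 27.8, 25.1 and 34.1 CPM in GFP low libraries. It was higher in GFP high in 5 of 5 pairs, but the log2 fold change of 0.25 ± 0.18 missed the threshold (edgeR adjusted p = 0.328). Kif3b averaged 18.9 ± 4.0 CPM in GFP high libraries and 14.9 ± 2.62 CPM in GFP low libraries, a log2 fold change of 0.34 ± 0.18 (edgeR adjusted p = 0.179). For Kif3b the log2 fold change was 0.67 (edgeR adjusted p = 0.0214, beside 10.8% of all genes higher) in replicates 1 to 3 alone. It was -0.15 (edgeR adjusted p = 0.705) in replicates 4 and 5 alone. The log2 ratios of Kif3b in pairs 1 to 5 were 0.60, 0.74, 0.55, 0.30 and -0.59, so only pair 5 was negative. Kif16b, a motor of early endosomes, had 35.1, 39.6, 38.4, 29.1 and 35.3 CPM in GFP high libraries, against 33.1, 32.2, 32.1, 37.5 and 38.5 CPM in GFP low libraries. Its groups overlapped, at a log2 fold change of 0.03 ± 0.11 (edgeR adjusted p = 0.854).

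The other tested transport kinesins were Kif13a and Kif13b, which carry membrane proteins, Kif1b and Kif1c, which carry vesicles and organelles, and Kif3c. Their log2 fold changes were 0.06, 0.23, 0.02, -0.06 and 0.21 in that order, and none passed the threshold. Of the 7406 exonic bases of Kif3c, 2617 are shared with the antisense gene 1110002L01Rik. For Kif13b, GFP low library 1 had 38.2 CPM and its other GFP low libraries 19.4 to 24.4 CPM. Kif1a, Kif5a and Kif5c, which are motors of neurons, were not tested. Kif1a and Kif5a had at most 2 counts in any library, and Kif5c had 2, 0, 2, 6 and 16 counts in GFP high libraries, against 4, 0, 0, 0 and 0 counts in GFP low libraries.

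Kif17, a homodimeric kinesin-2 known for carrying NMDA receptor vesicles along dendrites, was the transport kinesin that was higher in GFP high. Kif17 (ENSMUSG00000028758, chr4:138250435-138301967, + strand) had 11.8, 21.6, 11.4, 16.5 and 16.5 CPM in GFP high libraries, against 3.44, 4.0997, 4.26, 6.13 and 5.21 CPM in GFP low libraries. Every GFP high library lay above every GFP low library, beside 7.92% of all genes tested. The means were 15.6 ± 4.17 CPM in GFP high libraries and 4.63 ± 1.05 CPM in GFP low libraries, 3.36-fold higher in GFP high, with a log2 fold change of 1.75 ± 0.23 (edgeR adjusted p = 0.000199). These levels rest on 162 to 248 counts per GFP high library, against 44 to 78 counts per GFP low library.

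The annotation of this locus bears on what was counted. One Kif17 transcript begins with a 74-base exon that lies wholly within the first exon of Sh2d5, a gene for an SH2-domain protein on the same strand (ENSMUSG00000045349, chr4:138250403-138261332), and starts 32 bases after the Sh2d5 start. The other 3 annotated Kif17 transcripts start 11829 to 12096 bases after the Sh2d5 start, past the end of Sh2d5. Sh2d5 was singled out after its values were seen. Sh2d5 had 80.5, 66.6, 54.1, 103.6 and 128 CPM in GFP high libraries, against 32.3, 21.4, 15.7, 36.5 and 40.1 CPM in GFP low libraries. It too was higher in every GFP high library, with means of 86.5 ± 29.5 CPM in GFP high libraries and 29.2 ± 10.3 CPM in GFP low libraries and a log2 fold change of 1.56 ± 0.28 (edgeR adjusted p = 0.00132). The libraries were ordered differently, since Kif17 was highest in GFP high library 2 and Sh2d5 in GFP high library 5. Counts per gene do not separate transcripts, and which Kif17 start was used was not tested.

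**Figure D4:**
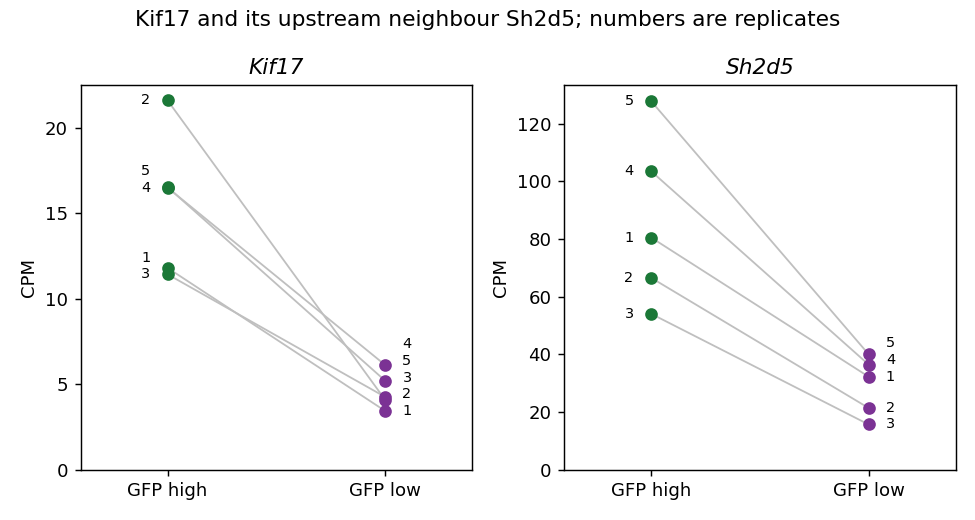
CPM of Kif17 and of Sh2d5, whose first exons share bases on chromosome 4, in the 5 GFP high and the 5 GFP low libraries. Points are labelled by replicate number, and lines join same-numbered libraries. Both genes are higher in every GFP high library, and GFP high library 2 is the highest for Kif17 at 21.6 CPM while library 5 is the highest for Sh2d5 at 128 CPM.

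Among the others, Kif24 was lower in GFP high. Kif24 is a microtubule depolymerase of the mother centriole, where it holds back the growth of a primary cilium. Kif24 (ENSMUSG00000028438, chr4:41390745-41464887, - strand) had 8.60, 10.3, 7.79, 6.38 and 8.66 CPM in GFP high libraries, against 15.3, 19.8, 13.5, 18.5 and 12.5 CPM in GFP low libraries. The groups did not overlap, with a log2 fold change of -0.93 ± 0.18 (edgeR adjusted p = 0.00264) and a level 1.91-fold lower in GFP high. Its log2 fold change lay within the range of the mitotic kinesins, -1.29 to -0.68.

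The remaining others did not pass the threshold. Kif2a, a depolymerase close to Kif2c, averaged 25.0 ± 5.32 CPM in GFP high libraries and 26.0 ± 3.31 CPM in GFP low libraries, a log2 fold change of -0.06, and 1229 of its 6393 exonic bases are shared with Dimt1 on the opposite strand. Kif21b, which restrains microtubule growth, averaged 23.2 ± 3.15 CPM in GFP high libraries and 20.7 ± 5.41 CPM in GFP low libraries. Kif19a and Kif9 are motors of cilia and flagella, and each kept 1 direction in 5 of 5 pairs. Kif19a averaged 11.1 ± 1.46 CPM in GFP high libraries and 13.1 ± 3.28 CPM in GFP low libraries, with a log2 fold change of -0.24 ± 0.19 (edgeR adjusted p = 0.371), or -0.079 without GFP low library 1, its highest at 18.6 CPM. Kif9 averaged 4.70 ± 1.23 CPM in GFP high libraries and 3.08 ± 1.56 CPM in GFP low libraries, with a log2 fold change of 0.61 ± 0.37 (edgeR adjusted p = 0.238). Kif1bp fits the naming rule but encodes a protein that binds kinesins and has no motor, and its log2 fold change was 0.20 ± 0.12 (edgeR adjusted p = 0.240).

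**Figure D5:**
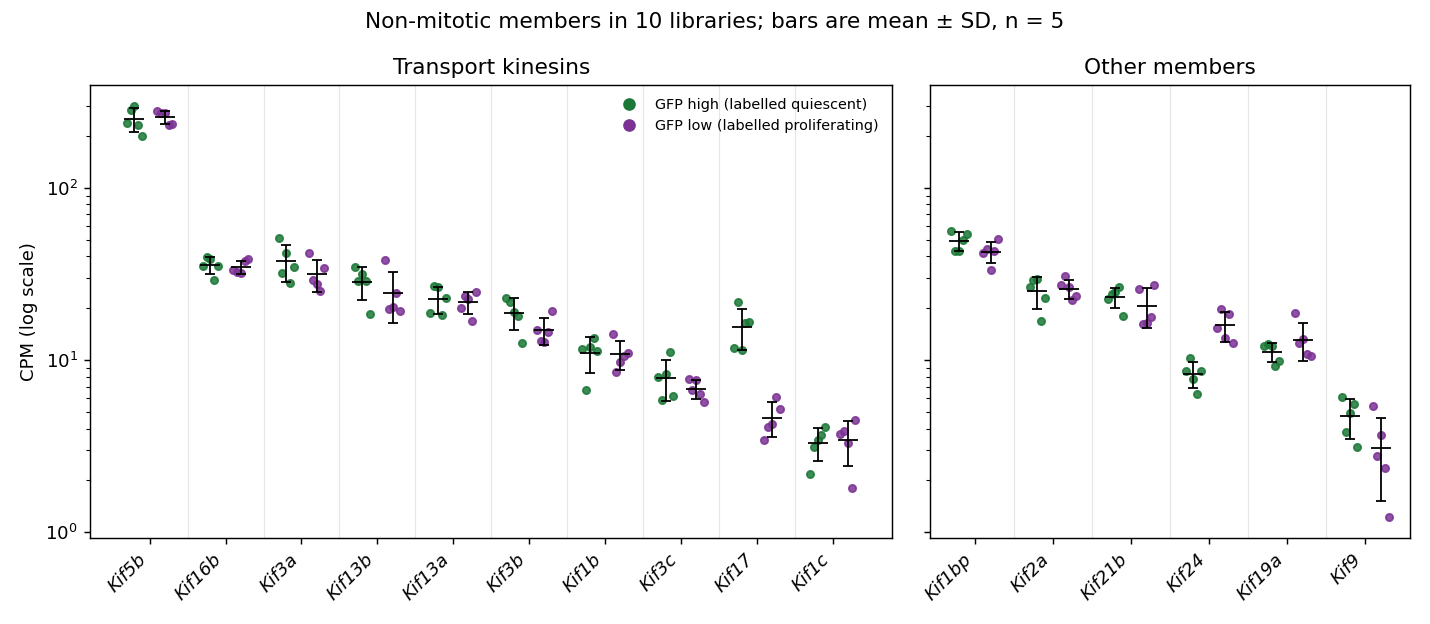
CPM of the tested transport kinesins and other kinesins in the 5 GFP high and the 5 GFP low libraries (points with mean and SD). Kif17 stands clear above its GFP low level and Kif24 below it, while the groups overlap for the rest.

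Of the 12 kinesins that were not tested, 6 were at 0 in every library, namely Kif2b, Kif6, Kif21a, Kif26b, Kif27 and Kif28. A count of 0 allows up to 3 counts, or 0.202 to 0.282 CPM by library, for counting error only. Kif7, which works in Hedgehog signalling at the cilium, had 0 counts in every GFP high library, against 0, 0, 4, 2 and 9 counts in GFP low libraries. Of the 4581 exonic bases of Kif7, 51 are shared with Ticrr on the opposite strand, which had 331 to 968 counts per library. The part of Ticrr reads in the Kif7 counts was not tested. Kif12 and Kif26a had at most 2 and 4 counts in any library.

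Levels per length order the kinesins differently in the groups. In CPM per kilobase of exon, Kif5b was first in GFP high libraries at 31.5 ± 5.08, ahead of Kif11 at 27.7 ± 4.62, a gap within their spread. In GFP low libraries Kif11 was first at 59.3 ± 6.26, beyond the spread from Kif22, with Kif5b at 32.3 ± 2.80. Per kilobase, Kif17 stood at rank 16 of 27 in GFP high libraries and rank 23 in GFP low libraries. Kif1c was the lowest in both groups, at 0.453 CPM per kilobase in GFP high libraries and 0.472 in GFP low libraries.

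Partners of the motors were read from lists of known binding proteins. Of 14 mitotic kinesin partners, 14 were lower in GFP high and 0 higher, beside 15.4% and 12.0% of all genes, with a median log2 fold change of -1.09. Racgap1, the partner of Kif23 in centralspindlin, averaged 147 ± 18.4 CPM in GFP high libraries and 345 ± 44.2 CPM in GFP low libraries, a log2 fold change of -1.23 ± 0.11 (edgeR adjusted p = 1.43e-05). Aurkb, the midzone kinase Kif20a brings, had a log2 fold change of -1.06 ± 0.08 (edgeR adjusted p = 6.95e-06). Plk1, a mitotic kinase, had one of -1.25 ± 0.11. Citron kinase, the partner of Kif14, had one of -0.54 (edgeR adjusted p = 0.0487). The smallest change of the list was that of Mapre1, which tracks growing microtubule ends, at -0.28 ± 0.06 (edgeR adjusted p = 0.00565).

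Of 20 transport kinesin partners, 16 were tested, 3 were higher, 1 was lower and 12 did not pass, beside 12.0% higher and 15.4% lower of all genes, with a median log2 fold change of -0.02. Klc1, a light chain of Kif5b, averaged 56.1 ± 6.32 CPM in GFP high libraries and 57.5 ± 2.64 CPM in GFP low libraries (log2 fold change -0.04 ± 0.09, edgeR adjusted p = 0.805). Kifap3, the third subunit of the Kif3a and Kif3b motor, had a log2 fold change of -0.13 ± 0.15 (edgeR adjusted p = 0.548). Arl8a, which tethers kinesin to lysosomes, averaged 108 ± 8.10 CPM in GFP high libraries and 65.8 ± 7.23 CPM in GFP low libraries (log2 fold change 0.71 ± 0.09, edgeR adjusted p = 0.000191). The adaptors Plekhm2 and Mapk8ip3 were also higher, at 0.69 ± 0.20 and 0.80 ± 0.28 (edgeR adjusted p = 0.0217 and 0.0483). Map7, which recruits Kif5b to microtubules, was lower at -0.42 ± 0.11 (edgeR adjusted p = 0.0133).

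Of 5 kinesins with other names, 4 were tested, 2 were lower in GFP high and 0 higher, beside 15.4% and 12.0% of all genes. Cenpe, the kinetochore kinesin, averaged 58.6 ± 17.3 CPM in GFP high libraries and 130.2 ± 36.5 CPM in GFP low libraries (log2 fold change -1.15 ± 0.23, edgeR adjusted p = 0.00269). Kifc1, a minus-end motor that focuses spindle poles, averaged 8.93 ± 1.96 CPM in GFP high libraries and 20.9 ± 3.48 CPM in GFP low libraries (log2 fold change -1.23 ± 0.18, edgeR adjusted p = 0.000406). Kifc1 has a near-identical copy, Kifc5b, so the split of reads between them is uncertain. Kifc2 averaged 2.24 ± 0.716 CPM in GFP high libraries and 0.813 ± 0.774 CPM in GFP low libraries, a log2 fold change of 1.45 ± 0.55 that missed the threshold (edgeR adjusted p = 0.0672), and Kifc5b had one of -0.73 ± 0.42 (edgeR adjusted p = 0.22). Outside the kinesins, all 26 G2 and mitosis genes on the list and all 22 S phase genes were lower in GFP high, with median log2 fold changes of -1.11 and -1.01.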

How the data were processed

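RNA-seq of polyA RNA was amplified with SMART-Seq v4, per the labels' protocols. The deposited values are gene counts, raw, not normalized by the authors. The submitters' processing notes name mm10, STAR, featureCounts and DESeq2, without versions, and strand and multimapping settings are not given in the sources used here. Of the 55573 gene IDs, 55480 matched GENCODE M21. Genes with low counts were filtered, leaving 12772, and TMM-normalized counts were tested with edgeR 4.0.16 (limma 3.58.1, R 4.3.3), with 1 term for GFP high against GFP low over all 10 libraries. DESeq2 1.42.0 was an alternative, and Python 3.11.15 summarised the results. Calls used an adjusted p under 0.05. CPM and CPM per kilobase of exon were computed from the deposited counts. The test was checked on simulated data. Depth sets the precision of counting, and the floor given for a count of 0 covers counting error only. Values after ± are SEs for log2 fold changes and SDs between the libraries of a group otherwise. Both include the spread between libraries. Each SE was derived from the edgeR test, as the absolute log2 fold change divided by the square root of the F statistic.

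Same-numbered libraries correlated at 0.248 to 0.353 in their deviations from the group means. Libraries of other numbers correlated at -0.304 to 0.321 (the highest between numbers 4 and 5). All 5 GFP high libraries matched best the GFP low library of their number, so the numbers were taken to pair the libraries. The main test did not use this pairing, and the block for the replicate number was an alternative. With the block, 21.0% of all genes tested were lower in GFP high and 20.7% higher, beside 15.4% and 12.0% in the main test. The labels do not state what a number marks. Both libraries numbered 3 had 9 and 2 counts in Y-linked genes, against 309 to 2654 in the others. The members, lists and tests were chosen with earlier results of these data known. Values in every library are given for each tested mitotic kinesin, each other kinesin called and the 3 transport kinesins of highest mean CPM, and the other members more briefly. From each partner list Cenpe, Kifc1, Klc1, Kifap3 and Racgap1 and the 2 tested genes of lowest p were named. Sh2d5, Cit, Mapre1, Plekhm2, Mapk8ip3, Kifc2, Kifc5b, Dync1li2 and the lineage markers were named after their values were seen. A protein motif that had been planned was not analysed here.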

Additional observations from a re-analysis of the deposited data

Results flagged for a closer look

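The following values stood apart from the other libraries of their group by a gap that is large for the group's range. Chance flags about 1 in 20 groups, and 3 of 54 groups were flagged. Kif11 was highest in GFP low library 2 at 522 CPM, against 408 to 438 CPM in the other GFP low libraries, and without that library its log2 fold change was -1.02. Kif20a was highest in GFP low library 2 at 135 CPM, and without it the log2 fold change was -1.11. Kif13b was highest in GFP low library 1 at 38.2 CPM, and without it the log2 fold change was 0.44 (edgeR adjusted p = 0.0893). Library 2 had every tested mitotic kinesin above its group's mean in GFP high and in GFP low, and the part of this in the flagged values was not tested.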

How the results depend on the processing

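With the replicate number as a block, 11 of 11 mitotic kinesins were lower in GFP high, against 21.0% of all genes tested, and Kif14 was at -0.76. No other call of a class changed. Over the 18 alternatives the count of mitotic kinesins lower in GFP high was 10 to 11, while 6.02% of all genes (with no filter on low counts) to 21.0% (with the block) were lower. With replicates 1 to 3 alone, 2 of 10 transport kinesins, Kif17 and Kif3b, were higher, beside 10.8% of all genes. Of 486 gene values under alternatives for 27 kinesins, 458 kept the direction and the side of the threshold, 5 for 2 genes passed it newly, and 23 for 8 genes, none called, changed sign. Without both libraries numbered 3, Kif1b was at -0.041 and Kif16b at -0.025. In replicates 1 to 3 alone Kif1b was at -0.074, Kif2a at 0.044 and Kif5b at 0.028. In replicates 4 and 5 alone Kif1c was at 0.28, Kif3b at -0.15, Kif13a at -0.047, Kif16b at -0.26 and Kif21b at -0.037. Leaving out each library in turn gave -0.049 to 0.18 for Kif1b, -0.21 to 0.079 for Kif1c, -0.12 to 0.068 for Kif2a, -0.11 to 0.048 for Kif5b and -0.0028 to 0.15 for Kif13a. With DESeq2 Kif14 passed the threshold. The cause was not tested.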

Other observations

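The motors that move the other way along microtubules, cytoplasmic dynein and its activator dynactin, gave 22 tested genes of 23, with 1 higher, 7 lower and 14 not past the threshold, beside 12.0% higher and 15.4% lower of all genes, and a median log2 fold change of -0.06. Nde1, a dynein regulator that acts at kinetochores and centrosomes, averaged 124 ± 7.45 CPM in GFP high libraries and 175 ± 17.9 CPM in GFP low libraries (log2 fold change -0.50, edgeR adjusted p = 0.0012). Dynll1, a light chain, averaged 213 ± 25.0 CPM in GFP high libraries and 289.6 ± 17.2 CPM in GFP low libraries (-0.44 ± 0.09, edgeR adjusted p = 0.00346). Dync1li2, a light intermediate chain, was higher at 0.36 (edgeR adjusted p = 0.0443).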
